A study of Mus musculus with 16 samples.

Results

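The genes described here encode the proteins of the cytosolic ribosome in B16F10 melanoma tumors. They were chosen by symbol: Rpl or Rps followed by a number, together with Rplp0, Rplp1, Rplp2 and Rpsa, leaving out symbols with the pseudogene ending -ps, the Rps6 kinases and the Rps19-binding protein. The rule found 92 of the 45777 genes listed, of which 55 are named for the large subunit and 37 for the small subunit. No measured value entered this rule, although the members were chosen with earlier results of these data known. By role, 43 are core proteins of the large subunit, 31 are core proteins of the small subunit, 3 form the stalk of the large subunit, 8 are paralogs of a core gene and 7 are retrocopies or other copies that carry a ribosomal protein symbol. A gene entered the tests when it had reads in every tumor, which left 89 of the 92. The 3 left out were Rpl10l, listed at 0 in all 16 tumors, Rpl39l, at 0 in 4 tumors, and Rpl3l, at 0 in 1 tumor.

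Each ribosome contains a single copy of nearly every core protein, so that a cell must make them in matched amounts, together with the ribosomal RNA. Most mammalian ribosomal protein mRNAs begin with a C followed by a run of pyrimidines, called the TOP motif, through which their translation depends on mTORC1 signaling. Ribosomal proteins that are not built into ribosomes can bind Mdm2, the ubiquitin ligase of p53, and Rpl5, Rpl11 and Rpl23 are the members best known for this.

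The start of transcription is therefore the part of these genes that a reader can see. RefSeq promoters (GRCm38.p6) were found for 67 of the 92 members, and the 15 bases before and 15 bases from the annotated start are shown for genes that later results turn on. Capitals mark the longest run of at least 5 bases that begins with C and holds only pyrimidines. In each line 15 bases stand before the start.
Rps6, chr4:86857353-86857382, minus strand: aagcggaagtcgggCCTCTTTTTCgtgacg
Rps27, chr3:90213634-90213663, minus strand: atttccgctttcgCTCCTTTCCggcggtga
Rplp2, chr7:141447636-141447665, plus strand: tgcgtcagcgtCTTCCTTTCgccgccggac
Rps27l, chr9:66946071-66946100, plus strand: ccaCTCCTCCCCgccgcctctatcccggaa
Rpl22l1, chr3:28805493-28805522, plus strand: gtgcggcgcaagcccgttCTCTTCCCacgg
Rps28, chr17:33824548-33824577, minus strand: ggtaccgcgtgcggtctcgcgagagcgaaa
Rpl26, chr11:68901551-68901580, plus strand: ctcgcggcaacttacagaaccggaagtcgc
Rpl7l1, chr17:46782642-46782671, minus strand: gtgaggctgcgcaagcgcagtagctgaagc
In Rps6, Rps27 and Rplp2 the run spans the start. In Rps27l it lies before the start, and Rps28, Rpl26 and the paralog Rpl7l1 have no such run in this window. A C at exactly the annotated start followed by at least 4 pyrimidines was present in 15 of the 67 members (22.4%), against 3.01% of all 27025 genes in the table. A C followed by at least 6 pyrimidines anywhere in the window was present in 33 members (49.3%) and in 16.4% of all genes. From 250 bases before to 50 after the start, CCGGAAG on either strand was found in 26 members (38.8%) against 9.93% of all genes, and TATAAA, within 50 bases before the start on the strand of the gene, in 1 member (1.49%) against 3.15%. A gene with several annotated starts was counted where any of them matched. These letters describe the windows around annotated starts, which can lie some bases from the start that a cell uses.

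B16F10, a mouse melanoma line that grows in C57BL/6J hosts, was injected under the skin of lean C57BL/6J mice or obese C57BL/6J-ob/ob mice, which lack leptin, at 6 weeks of age. Tumors were taken before therapy, or after 5 injections of etoposide (ETS, a topoisomerase II inhibitor that breaks DNA) at 20 mg per kg. The day on which the untreated tumors were taken is not given in the sources used here. ETS can therefore not be told apart from days of growth or tumor size, and the ETS effect below names the contrast of treated with untreated tumors. Each of the 4 groups holds 4 tumors, and obesity here is a mutation present from birth rather than a diet. The study asked how tumors in obese mice resist chemotherapy, and the comparisons here ask how the messages for the ribosome differ between hosts and change with ETS.

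The libraries held between 47199949 and 61655287 read counts. The 10 melanocyte markers summed to between 15167 and 38535 CPM (counts scaled to a library of fixed size, with factors from the trimmed mean of M-values, TMM) in every tumor, so the label of melanoma holds, but these are whole tumors with host cells in them. In such bulk samples, fewer cells of a type and less RNA per cell cannot be told apart. The 10 macrophage markers summed to 442 to 1402 CPM in lean tumors before therapy, 51.2 to 432 in lean tumors after ETS, 43.8 to 264.7 in obese tumors before therapy and 365 to 1114 in obese tumors after ETS. All 10 markers of T and NK cells were at 0 in at least 1 tumor, and they summed to 26.1 to 51.2 CPM in lean tumors before therapy and to at most 3.06 elsewhere. Hemoglobin and the other erythroid markers ranged from 859 to 13061 CPM in obese tumors before therapy and reached at most 481 in the other groups. Nothing in the labels says whether the 4 tumors of a group came from separate mice, so the tests measure the spread between these samples.

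Ribosomal protein messages were abundant in all 16 tumors. Per length, in TPM (transcripts of each gene in a fixed total), the 77 core genes had a median level of 1573 and 56 of them exceeded 1000. Rplp1 was the highest at 4829 TPM, the 15th highest of all genes listed, followed by Rpl32 at 3185 and Rps2, a substrate of the arginine methyltransferase Prmt3, at 2978. Rps15a was the lowest core gene at 151 TPM, a value per length. Its annotated transcript of 5179 bases was the longest of the members. By read counts it was not the lowest, with 16820 to 34245, against 11875 to 22528 for Rps29, which stood at 1344 TPM. The order of the core genes by TPM was close to the same in all 4 groups, with Spearman correlations between group means of 0.93 to 0.99 across the 77 genes, which are not independent replicates. The copies were far lower, Rpl32l at 1.34 TPM and Rps3a3 at 4.85 TPM, as was Rps4l at 3.39 TPM.

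The 92 genes together took 4.48%, 4.72%, 4.10% and 4.004% of read counts in the 4 lean tumors before therapy. In lean tumors after ETS they took 4.16%, 4.91%, 4.64% and 4.83%. In obese tumors they took 5.16%, 5.40%, 6.38% and 5.98% before therapy and 4.51%, 4.36%, 4.40% and 5.17% after ETS. The group means were thus 4.33% ± 0.33, 4.63% ± 0.34, 5.73% ± 0.55 and 4.61% ± 0.38 (SD, n = 4 each). Every obese tumor before therapy lay above every lean tumor before or after therapy, and the lowest of them fell just under the highest obese tumor after ETS. As a share of summed TPM the means were 11.1%, 10.7%, 13.9% and 11.2%, which keeps obese tumors before therapy highest and turns the small difference between the lean groups around. Genes of the mitochondrial genome moved in the same libraries: they took 4.19% to 6.10% of counts in lean tumors before therapy, 9.87% to 14.6% in lean tumors after ETS, 4.11% to 5.59% in obese tumors before therapy and 4.76% to 11.8% in obese tumors after ETS. Each direction is therefore given on both scales.

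**Figure D1:**
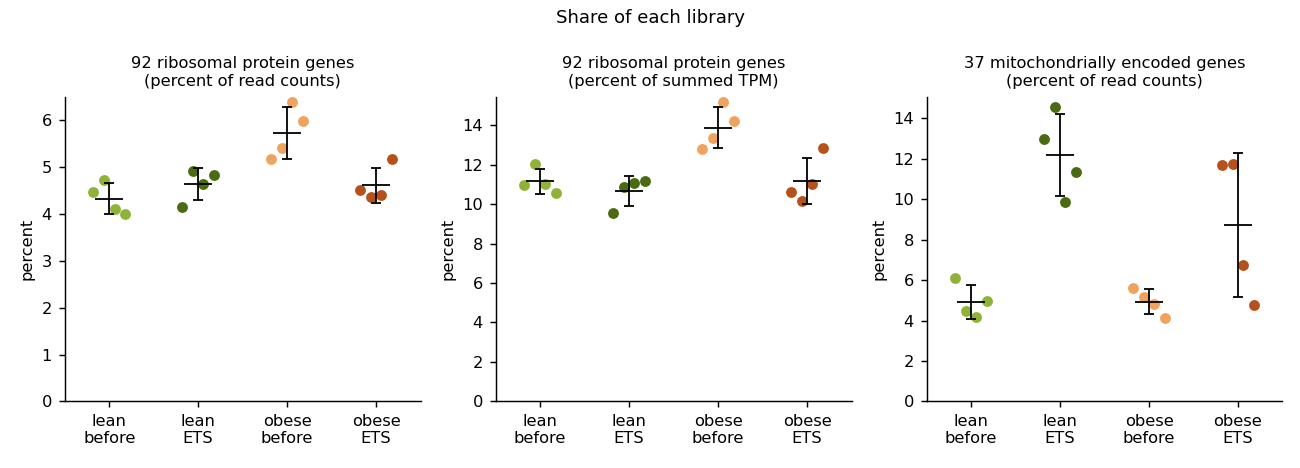
Share of each library, in percent, taken by the 92 ribosomal protein genes (by read counts and by summed TPM) and by the 37 mitochondrially encoded genes. Points are tumors, bars are the group mean ± SD (n = 4). Obese tumors before therapy have the highest ribosomal protein share on both scales, and the mitochondrial share is higher in all 4 lean tumors after ETS than in any tumor before therapy.

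Before therapy, ribosomal protein genes were higher in obese than in lean tumors, and the rise ran through both subunits. Of 89 members tested, 67 were higher and 0 lower in obese tumors by edgeR's quasi-likelihood test at a Benjamini-Hochberg adjusted p under 0.05, where 13.5% of all 16209 genes tested were higher and 12.9% lower. At an unadjusted p under 0.05, 77 members were higher and 0 lower, against 6142 of all 16209 genes in either direction. DESeq2 called 73 members higher and 0 lower, and its share of all genes is not given. The median member was 0.46 higher on the log2 scale, a fold of 1.38, against 0.02 for all genes. The 4 obese tumors all exceeded the 4 lean tumors in 67 members, against 16% of all genes, and were all below them in 0 members, against 14.4% of all genes. On the log2(TPM + 1) scale limma called 38 members higher and 0 lower, against 6.95% and 17.1% of all genes, with a median of 0.32 against -0.08 for all genes, and all 38 were among the 67. Macrophage markers moved the opposite way in the same comparison, with 9 of 10 lower in obese tumors, as did 4 of 8 endothelial and 5 of the 10 melanocyte markers. Erythroid markers moved the same way as the members, from 108 to 481 CPM in lean tumors to 859 to 13061 CPM in obese tumors, with no overlap. Their part in the result was not tested.

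Rps28, a small protein near the site where mRNA leaves the small subunit, had the largest rise of a core gene. Its CPM was 125, 144, 132 and 122 in the lean group, and in the obese group 189, 185, 235 and 240. The groups did not overlap, and the difference was 0.70 ± 0.13 (log2, SE, edgeR adjusted p = 0.0013). Rpl26, which also binds the p53 mRNA, went from 357, 408, 375 and 344 CPM to 462, 513, 752 and 644 CPM. All 4 obese tumors were above the lean tumors, by 0.68 ± 0.15 (edgeR adjusted p = 0.0032). Rpl13a, known for a role outside the ribosome in silencing inflammatory mRNAs, had 800, 739, 597 and 664 CPM in lean tumors and 969, 942, 1255 and 1254 CPM in obese tumors, a difference of 0.66 ± 0.14 (edgeR adjusted p = 0.0023). Rpl37rt, a copy of Rpl37 at 2.25 CPM in lean tumors, was 0.73 ± 0.17 higher (edgeR adjusted p = 0.0052), but its reads could not be separated here from those of Rpl37.

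ETS in obese tumors was followed by lower ribosomal protein messages. In the edgeR test 30 members were lower and 0 higher, with a background of 19.0% of all genes lower and 21.2% higher. Another 11 members passed an unadjusted p under 0.05 downward and 1 passed it upward, Rps4l, which DESeq2 also called, beside 35 lower. An unadjusted p under 0.05 was reached by 7951 of all 16209 genes in either direction, and the DESeq2 share of all genes is not given. The median member was 0.23 lower on the log2 scale, against a median of 0.01 for all genes. Of the 4 against 4 tumors, 20 members were lower without overlap and 0 were higher without overlap, against 17.7% and 16.4% of all genes. On the TPM scale 52 members were lower and 0 higher, against 20.6% and 15.9% of all genes, with a median of -0.32 against -0.05 for all genes, and 29 of the 30 were among them. The size of this count rested on single tumors: it was 9 without obese tumor 3 before therapy, 10 without obese tumor 4 before therapy, and 17, 16 and 13 without obese tumors 1, 2 and 3 after ETS. In the same comparison 8 of 10 macrophage markers, 7 of 8 fibroblast markers, 6 of 8 endothelial markers and 5 of 10 melanocyte markers were higher after ETS, and erythroid markers went from 859 to 13061 CPM to 1.34 to 38.4 CPM. Their part in the result was not tested.

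Rpl26 fell most among the core genes, from the values above to 407, 363, 384 and 465 CPM after ETS. Only the highest treated tumor overlapped the untreated range, and the change was -0.55 ± 0.15 (edgeR adjusted p = 0.0082). Rps3a1 fell from 1128, 1238, 1485 and 1398 CPM to 812, 911, 905 and 1050 CPM without overlap (-0.51 ± 0.12, edgeR adjusted p = 0.0038). Rpl21, which has many processed copies in the genome, changed by -0.51 ± 0.17 (edgeR adjusted p = 0.027), with 1 treated tumor inside the untreated range. All 3 were also lower after ETS on the TPM scale, where Rpl26 and Rps3a1 passed the limma test and Rpl21 did not.

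In lean tumors the result of ETS depended on the scale. By edgeR on TMM-scaled counts 36 members rose and 1 fell, with 21.0% of all genes higher and 22.8% lower. The median member was 0.28 higher on the log2 scale against -0.01 for all genes, and 32 members were higher and 0 lower without overlap between the tumors, against 20.8% and 20.3% of all genes. On the log2(TPM + 1) scale, in contrast, the median member was -0.10, 3 members were higher and 13 lower, against 8.33% and 44.9% of all genes, and all genes had a median of -0.28, so that the members stood 0.18 above the median gene on that scale and 0.29 above it on the other. With library totals alone as the scaling, 13 members were higher and 1 lower and the median was 0.09. With TPM rescaled to leave out the mitochondrially encoded genes, 15 were higher and 2 lower and the median was 0.10, against -0.13 for all genes. Without lean tumor 2 after ETS, 22 members were higher by edgeR. Macrophage markers were lower after ETS in 8 of 10 cases and fibroblast markers in 4 of 8, melanocyte markers were higher in 3 of 10, and erythroid markers summed to at most 0.158 CPM after ETS. Their part in the result was not tested.

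Rps27l, Rplp1 and Rps14 rose in lean tumors on both scales. Rps27l, a paralog of Rps27 and a known transcriptional target of p53, went from 106, 99.5, 91.2 and 95.7 CPM to 171, 196, 169 and 180 CPM. All treated tumors were far above all untreated ones, and the rise was 0.87 ± 0.11 (edgeR adjusted p = 3.9e-05), a fold of 1.82. In TPM its rise was 0.49 (limma adjusted p = 0.00043). Rplp1, an acidic protein of the stalk, rose by 0.77 ± 0.14 (edgeR adjusted p = 0.00059). Rps14, whose loss is linked to the anemia of a myelodysplastic syndrome, went from 551, 468, 373 and 388 CPM to 646, 991, 589 and 703 CPM. Its groups did not overlap, and it rose by 0.72 ± 0.17 (edgeR adjusted p = 0.003). Rpl36 went from 376, 364, 313 and 318 CPM to 441, 696, 480 and 548 CPM. It rose by 0.66 ± 0.14 on counts (edgeR adjusted p = 0.0021) and stood at 0.27 on the TPM scale, where limma gave an adjusted p of 0.065. In the other direction Rps4l, a transcribed pseudogene of Rps4x with 0.394 to 2.91 CPM in lean tumors, fell by 1.20 on the log2 scale (SE 0.46, edgeR adjusted p = 0.045) with overlapping groups.

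**Figure D2:**
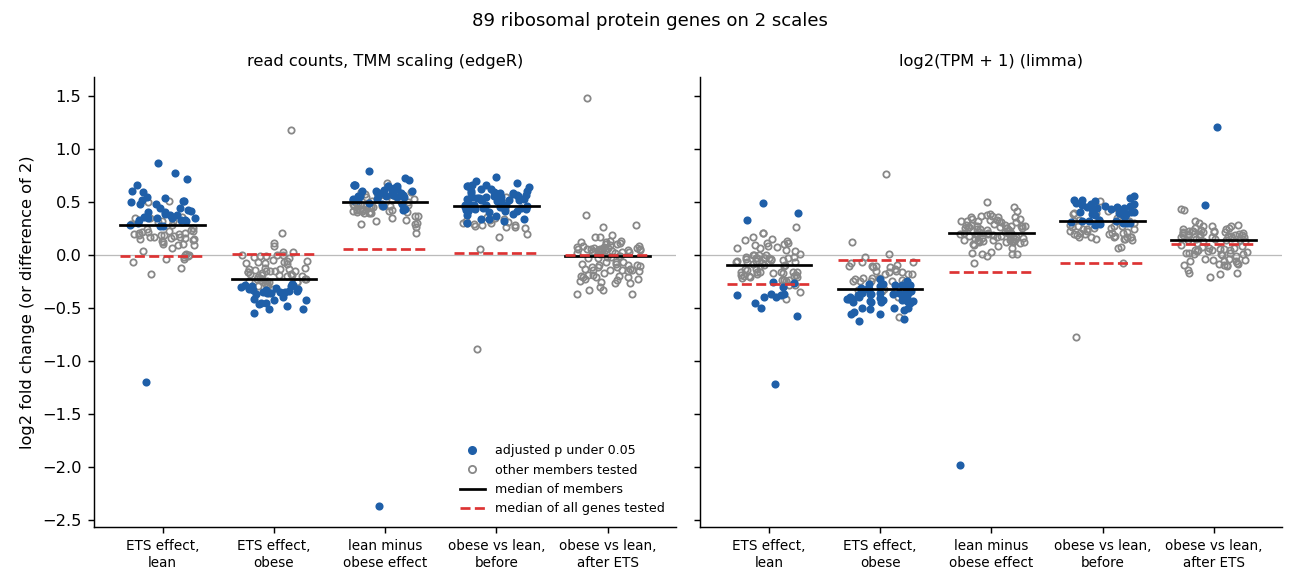
Log2 fold changes of the 89 members tested, on TMM-scaled read counts (left, edgeR) and on log2(TPM + 1) (right, limma). Columns are the ETS effect in lean and obese tumors, the difference of these effects, and obese against lean tumors before and after ETS. Filled points passed an adjusted p under 0.05, and lines mark the medians of the members and of all genes tested. The median in lean tumors is 0.28 on the left and -0.10 on the right, while the medians for obese tumors (-0.23 and -0.32) and for obese against lean before therapy (0.46 and 0.32) keep their sign.

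The ETS effects of lean and obese tumors, which use separate control tumors, differed on counts in the test of the difference itself. By construction this difference equals obese against lean before therapy minus obese against lean after ETS. The median member stood at 0.46 in the former and at -0.01 in the latter on counts. It therefore restates those comparisons in the same tumors and is not separate evidence. On counts 37 members had a more positive effect in lean tumors and 1, Rps4l, in obese tumors, against 6.35% and 10.1% of all genes. The median difference was 0.50 on the log2 scale (all genes 0.05), and 88 of 89 members had a positive difference. On the TPM scale limma passed 0 members upward and 1, Rps4l, downward at an adjusted p under 0.05, against 1.41% and 13.8% of all genes. The median difference there was 0.21 against -0.16 for all genes, with 86 positive differences. At an unadjusted p under 0.05 limma had 16 members upward, and the share of all genes at that threshold is not given. The number that passed on counts rested on single tumors: it was 18 without lean tumor 3 before therapy, 13 without lean tumor 4 before therapy, 18 and 20 without lean tumors 2 and 4 after ETS, 17 and 16 without obese tumors 3 and 4 before therapy, and 22 and 18 without obese tumors 2 and 3 after ETS. Rpl7, a core protein of the large subunit, had the smallest adjusted p. Its CPM was 832, 758, 730 and 680 and then 854, 925, 976 and 1013 in lean tumors, and 1004, 974, 1109 and 1163 and then 944, 854, 811 and 906 in obese tumors. On counts the groups moved apart without overlap in opposite directions, by 0.33 ± 0.10 in lean and -0.27 ± 0.10 in obese tumors. The difference was 0.60 ± 0.14 (edgeR adjusted p = 0.0066). On the TPM scale Rpl7 stood at -0.045 in lean tumors (limma adjusted p = 0.73) and at -0.37 in obese tumors (limma adjusted p = 0.013). Its opposite directions were thus seen on counts only. Rpl36 had the largest difference, 0.79 ± 0.20 (edgeR adjusted p = 0.014), followed by Rps14 at 0.73 ± 0.23 (edgeR adjusted p = 0.044) and Rpl32 at 0.70 ± 0.17 (edgeR adjusted p = 0.011).

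**Figure D3:**
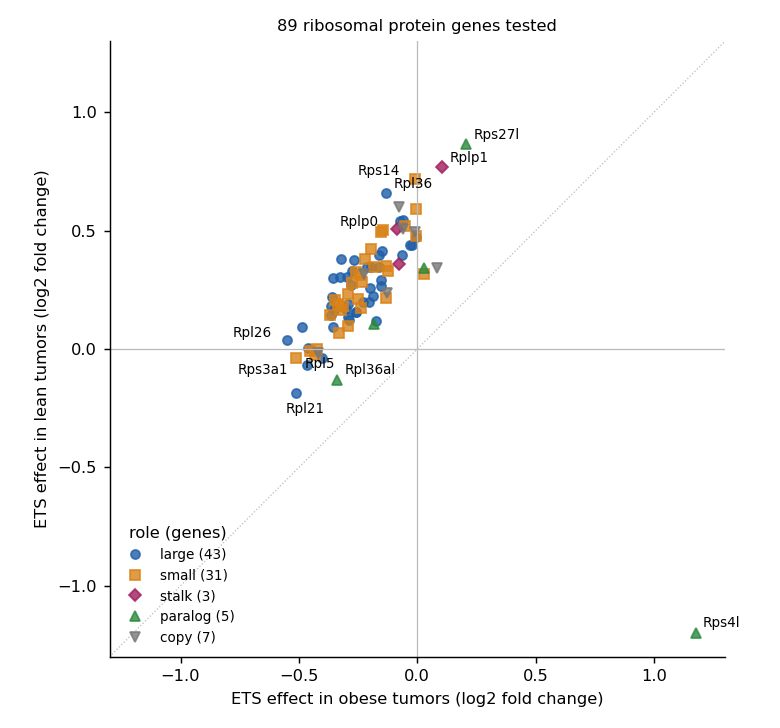
ETS effect in lean tumors (vertical axis) against that in obese tumors (horizontal axis) for the 89 members tested, as log2 fold changes on TMM-scaled counts, with symbols by role. The dotted line marks equal effects, and 88 members lie above it. Rps4l lies alone at the lower right.

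After ETS no difference between obese and lean tumors passed the edgeR test on counts in any of the 89 members. edgeR called 0 higher and 0 lower, against 3.28% and 2.30% of all genes. At an unadjusted p under 0.05 it had 2 higher and 6 lower, against 4056 of all 16209 genes in either direction. DESeq2 called 1 higher, Rps4l, and 0 lower. The median was -0.01, with an interquartile range of -0.14 to 0.06. For 1 member all obese tumors were higher, and for 5 all were lower, against 6.39% and 6.85% of all genes. Rplp0 was among the latter at -0.33 ± 0.15 (edgeR adjusted p = 0.18), with 1984, 2664, 1857 and 1860 CPM in lean and 1851, 1751, 1366 and 1683 CPM in obese tumors. For Rps28 and Rpl26, the core genes with the largest rise before therapy, the values after ETS were 0.05 ± 0.13 and 0.09 ± 0.15 (log2, SE), so that small differences in either direction remain possible. On the TPM scale limma called 2 members higher in obese tumors, Rps4l at 1.21 and the copy Rps12l1 at 0.47 (limma adjusted p = 0.038 and 0.044). The median there was 0.14, against 0.10 for all genes.

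The calls fell in both subunits, and the subunits were not tested against each other. Before therapy 35 of 43 core large-subunit genes and 24 of 31 core small-subunit genes were higher in obese tumors, against 13.5% of all genes. Their medians were 0.46 and 0.50. After ETS in obese tumors 19 of the 43 large-subunit and 9 of the 31 small-subunit genes fell, against 19.0% of all genes. Their medians were -0.27 and -0.24. In lean tumors 18 and 14 rose on counts, against 21.0% of all genes, with medians of 0.26 and 0.28. The TPM scale moved the median of all members below 0 as given above. Within each tumor the ratio of large-subunit to small-subunit counts, which no scaling affects, was 1.53 ± 0.021, 1.56 ± 0.027, 1.51 ± 0.018 and 1.53 ± 0.013 (SD, n = 4) in lean tumors before and after ETS and in obese tumors before and after ETS.

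The 3 stalk proteins, Rplp0, Rplp1 and Rplp2, recruit the elongation factors to the ribosome, where Rplp0 anchors more than a single copy of Rplp1 and Rplp2. Rplp1 had 1012, 906, 780 and 805 CPM in lean tumors before therapy and 1409, 1829, 1339 and 1391 CPM after ETS. It had 1090, 1171, 1358 and 1180 CPM in obese tumors before therapy and 1497, 1368, 1013 and 1288 CPM after ETS. All lean tumors before therapy lay below all other tumors, and the obese groups overlapped each other (0.11 ± 0.14, edgeR adjusted p = 0.57). The difference between the ETS effects was 0.66 ± 0.20 (edgeR adjusted p = 0.031). Rplp0 rose in lean tumors by 0.51 ± 0.15 (edgeR adjusted p = 0.013), and Rplp2 at 0.36 ± 0.14 did not pass (edgeR adjusted p = 0.055). None of the 3 passed in obese tumors, where their changes were between -0.08 and 0.11. On the TPM scale Rplp0 stood at 0.13 and Rplp2 at -0.02 in lean tumors, neither past the limma test.

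Rpl5, Rpl11 and Rpl23, which hold back Mdm2 when they are free of the ribosome, were each higher in obese tumors before therapy on counts. The difference between their ETS effects was positive on counts, and passed for Rpl11 and Rpl23 but not for Rpl5. On the TPM scale only Rpl11 of the 3 passed before therapy (limma adjusted p = 0.027, against 0.13 for Rpl5 and 0.056 for Rpl23). None of the 3 differences passed there (limma adjusted p = 0.71, 0.44 and 0.57 for Rpl5, Rpl11 and Rpl23). Rpl5 had 645, 624, 561 and 533 CPM in lean tumors before therapy and 539, 586, 599 and 644 CPM after ETS, the same range. In obese tumors it had 703, 762, 1015 and 888 CPM before therapy, above all lean tumors, and 574, 602, 563 and 709 CPM after ETS. With ETS on counts it fell in obese tumors (-0.46 ± 0.12, edgeR adjusted p = 0.0072) and was at 0.00 ± 0.12 in lean tumors (edgeR adjusted p = 0.99). The difference of 0.46 ± 0.17 did not pass (edgeR adjusted p = 0.073). On the TPM scale Rpl5 was lower after ETS in both hosts, at -0.38 in lean and -0.50 in obese tumors (limma adjusted p = 0.019 and 0.0068). Rpl11 fell without overlap in obese tumors (-0.29 ± 0.09, edgeR adjusted p = 0.023) and stood at 0.19 ± 0.09 in lean tumors (edgeR adjusted p = 0.12), a difference of 0.48 ± 0.13 (edgeR adjusted p = 0.023). Rpl23 rose by 0.27 ± 0.10 in lean tumors on counts (edgeR adjusted p = 0.036), where it was at -0.11 on the TPM scale, and stood at -0.15 ± 0.10 in obese tumors (edgeR adjusted p = 0.23), a difference of 0.42 ± 0.14 (edgeR adjusted p = 0.048). The 3 genes were not tested against each other.

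Rps6, the substrate of the S6 kinases and a usual readout of mTORC1, carried a pyrimidine run across its start, as printed above. It had 636, 639, 576 and 553 CPM in lean tumors before therapy and 553, 594, 623 and 623 CPM after ETS. It had 731, 818, 984 and 922 CPM in obese tumors before therapy and 583, 592, 598 and 752 CPM after ETS. On counts only the obese tumors before therapy thus stood high, and a single treated tumor reached into their range. The fall in obese tumors was -0.45 ± 0.11 (edgeR adjusted p = 0.0049) and obese tumors were 0.52 ± 0.11 higher before therapy (edgeR adjusted p = 0.0027). Rps27a, made as a fusion with ubiquitin, had the same course on counts. It had 629, 617, 867 and 793 CPM in obese tumors before therapy and 531, 535, 506 and 593 CPM after ETS. The change was -0.43 ± 0.11 (edgeR adjusted p = 0.0078, no overlap), and the lean value 0.00 ± 0.11. On the TPM scale Rps6 and Rps27a were also lower after ETS in lean tumors, at -0.38 and -0.37 (limma adjusted p = 0.027 and 0.034). Their obese changes were -0.54 and -0.51 (limma adjusted p = 0.0067 and 0.01), and neither difference between the ETS effects passed (limma adjusted p = 0.63 and 0.68).

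Rps19, mutated in Diamond-Blackfan anemia, exceeded its lean level in obese tumors before therapy by 0.62 ± 0.11 (edgeR adjusted p = 0.001) and rose in lean tumors on counts by 0.38 ± 0.11 (edgeR adjusted p = 0.014), whereas it stood at -0.01 in TPM and at -0.003 with the trend of length and GC content removed. Rpsa, the receptor-like laminin-binding protein of the small subunit, passed none of the tests on counts, with -0.32 ± 0.13 after ETS in obese tumors (edgeR adjusted p = 0.059), and was -0.42 there on the TPM scale (limma adjusted p = 0.0046). Rpl10, a late-joining protein at the peptidyl transferase center, also passed none on counts. Its CPM ranged from 640 to 925 over all 16 tumors, and on the TPM scale its ETS effect was -0.25 in lean and -0.27 in obese tumors (limma adjusted p = 0.024 for each).

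**Figure D4:**
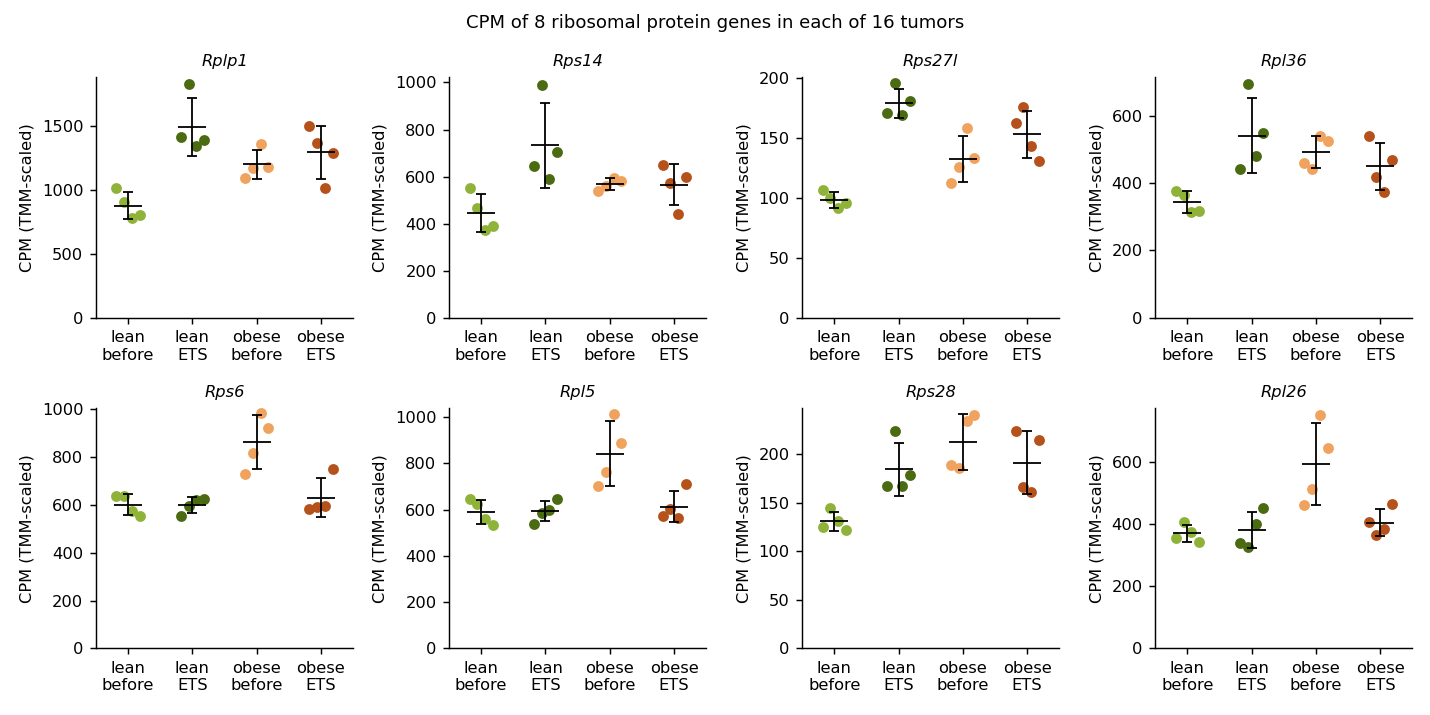
CPM (TMM-scaled, from 0) of 8 members in each tumor, with the group mean ± SD (n = 4). Rplp1, Rps14, Rps27l, Rpl36 and Rps28 have their lowest mean in lean tumors before therapy. Rps6, Rpl5 and Rpl26 have their highest mean in obese tumors before therapy. These traits are not exclusive, and a gene can have both.

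Ratios between members of the same tumor do not depend on the scaling. Relative to the mean log2 CPM of the 77 core genes in the same tumor, 7 members were higher and 11 lower in all lean tumors after ETS than in all lean tumors before, against 9.86% and 33% of all genes on the same relative measure. Rps27l moved by 0.60, Rplp1 by 0.50 and Rpl36 by 0.37 upward, whereas Rpl4 moved by -0.34, Rps3a1 by -0.30 and Rps6 by -0.27. In obese tumors 6 were higher and 8 lower after ETS, against 23.4% and 4.61% of all genes, among them Rplp1 at 0.33, Rpl24 at 0.23, Rpl26 at -0.29, Rps3a1 at -0.27 and Rpl4 at -0.23. Before therapy 8 were higher and 9 lower in obese than in lean tumors, against 2.44% and 42.9% of all genes, from Rps28 at 0.23 to Rpl7l1 at -0.40 and Rps4l at -1.31. These are descriptions without a test, and the core mean that each gene is set against itself moves between the groups.

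Of 8 paralog pairs, 5 had at least 10 counts for each gene in every tumor, and their log2 count ratios were compared by exact two-sided permutation tests, which with 4 against 4 tumors cannot go below p = 0.0286. Rps27l/Rps27 was -0.74, -0.82, -0.53 and -0.69 in lean tumors before therapy and -0.02, -0.33, -0.05 and -0.16 after ETS. The groups did not overlap, and the mean went from -0.70 ± 0.12 to -0.14 ± 0.14 (SD, n = 4, exact permutation p = 0.0286, adjusted 0.114 over 20 tests). In obese tumors it went from -0.82 ± 0.22 to -0.38 ± 0.36 with overlap (exact permutation p = 0.0857, n = 4). Rpl36al/Rpl36a fell from 0.61 ± 0.09 to 0.33 ± 0.03 in lean tumors without overlap (exact permutation p = 0.0286, n = 4, adjusted 0.114). Rpl7l1, whose level is 0.05 ± 0.10 apart between the hosts before therapy while Rpl7 rises, had a ratio of -2.44 ± 0.05 in lean and -2.89 ± 0.15 in obese tumors (exact permutation p = 0.0286, n = 4, adjusted 0.114). Rps4l/Rps4x, which rests on the low counts of Rps4l, went from -8.63 ± 0.38 to -10.35 ± 0.93 in lean tumors and was -9.77 ± 0.43 in obese tumors before therapy, both apart from lean tumors before therapy (exact permutation p = 0.0286, n = 4, adjusted 0.114 for each). Rpl22l1/Rpl22 overlapped in all comparisons. None of the 20 tests had an adjusted p under 0.05, so the separated ratios did not pass the correction for the number of tests.

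**Figure D5:**
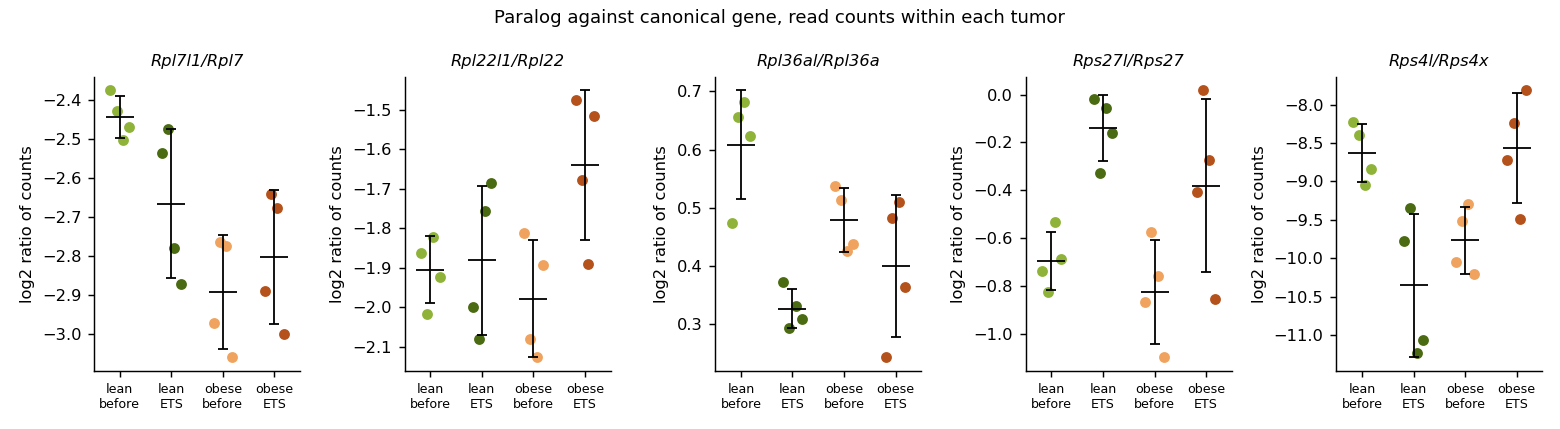
Log2 ratio of read counts of a paralog to its canonical gene in each tumor, with the group mean ± SD (n = 4). The vertical axes differ and do not start at 0. Rps27l/Rps27 and Rpl36al/Rpl36a separate lean tumors before and after ETS, Rpl7l1/Rpl7 separates lean from obese tumors before therapy, and Rps4l/Rps4x separates both.

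Rpl22l1, a paralog whose level Rpl22 is known to hold down, had 52.8, 45.3, 46.3 and 42.9 CPM in lean and 64.0, 49.8, 68.6 and 78.8 CPM in obese tumors before therapy, which overlap by a single tumor, and the difference passed narrowly (0.48 ± 0.17, edgeR adjusted p = 0.049). Rpl36al fell in obese tumors (-0.34 ± 0.10, edgeR adjusted p = 0.016). Rps4l had 0.848 to 1.51 CPM in obese tumors before therapy and 1.08 to 4.08 CPM after ETS (1.18 ± 0.46, edgeR adjusted p = 0.0504), and its difference between the hosts' ETS effects was -2.38 ± 0.65 (edgeR adjusted p = 0.020). Rps4l lies over Tmtc1 on the other strand, and whether strand was used in counting is not given in the sources used here, so its reads may be shared with it. Of the 7 copies, 4 (57.1%) were higher in obese tumors before therapy, against 13.5% of all genes. After ETS 1 (14.3%) rose in lean and 1 (14.3%) fell in obese tumors, against 21.0% and 19.0% of all genes. The 224 genes with the pseudogene ending -ps took 0.0472% to 0.0715% of counts. Of the 131 tested, 43 (32.8%) were higher and 0 lower in obese tumors before therapy, against 13.5% and 12.9% of all genes. Reads of copies and of their parents can be assigned to either, and these values are uncertain to that extent.

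Several features of the genes were set beside the changes. The 86 members with a transcript in the annotation had a median transcript length of 795 bases, against 2631 for 13560 genes tested. Across the 83 of these that were tested, longer transcripts had lower changes in lean tumors (Spearman -0.32, all genes -0.20) and before therapy (-0.25, all genes -0.14), which is a description over genes that share libraries. With each tumor's trend on length and GC content over all other genes taken out, 55 of these 83 members were higher in obese tumors before therapy. After ETS 32 were lower and 2 higher in obese tumors, and 22 were higher and 3 lower in lean tumors. The medians were 0.34, -0.18 and 0.12, against -0.03, 0.07 and -0.03 for all genes in that fit. Without this step they were 0.46, -0.23 and 0.28 over the 89 members. Shares of all genes called are not given for this fit, and the part of length and GC content in the changes was not tested. The 15 members with a C and pyrimidines at the start had median changes of 0.35 in lean tumors, -0.16 in obese tumors and 0.46 between hosts before therapy, and the 49 others with a promoter 0.26, -0.23 and 0.46. By the GENCODE vM21 annotation 30 members host 58 small nucleolar RNAs, and their medians were 0.22, -0.29 and 0.45, against 0.31, -0.23 and 0.47 in the 47 core genes that host none. Among 1390 other tested genes with transcripts under 1000 bases, the medians were 0.20, 0.01 and 0.17.

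Other genes of the pathway were taken from lists, and their counts on read counts stand beside the shares of all genes given above: 13.5% higher and 12.9% lower before therapy, 21.0% higher and 22.8% lower after ETS in lean tumors, and 21.2% higher and 19.0% lower in obese tumors. Of 21 ribosome-associated or TOP-mRNA genes outside the naming rule, 10 were higher and 0 lower in obese tumors before therapy (median 0.30), 8 rose and 3 fell in lean tumors after ETS on counts (median 0.28, but -0.07 on the TPM scale with 2 higher and 4 lower), and 6 fell and 0 rose in obese tumors (median -0.17). On the TPM scale 4 were higher and 0 lower before therapy, and 11 fell and 0 rose in obese tumors. Fau, a ubiquitin-like protein joined to a ribosomal protein, was 0.51 ± 0.15 higher in obese tumors before therapy (edgeR adjusted p = 0.018). Of 60 biogenesis factors, which assemble ribosomes in the nucleolus, 29 fell and 0 rose in lean tumors (median -0.26), 33 fell and 0 rose in obese tumors (median -0.33), and before therapy 2 were lower and 0 higher in obese tumors (median 0.03, but -0.10 in TPM). On the TPM scale 53 and 37 of the 60 were lower after ETS in lean and obese tumors and 0 were higher, where 44.9% and 20.6% of all genes were lower. Tcof1, a cofactor of ribosomal RNA transcription, fell by 0.79 on the log2 scale in lean tumors (SE 0.09, edgeR adjusted p = 1.6e-05), and Nop58, a core protein of box C/D particles, fell by 0.97 in obese tumors (SE 0.17, edgeR adjusted p = 0.00052).

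Of 28 genes of RNA polymerases I and III, a list with shares near those of all genes on counts in lean tumors, 5 were higher and 7 lower after ETS in lean tumors (median -0.08, with 18 lower and 0 higher in TPM), with 1 higher and 7 lower in obese tumors (median -0.15). Before therapy 3 of the 28 were higher and 2 lower in obese tumors on counts (median -0.04), and 1 was higher and 7 lower in TPM (median -0.13). Polr3g, a subunit of a stem-cell form of polymerase III, was unlike most of this list at 1.09 ± 0.14 higher in that comparison (edgeR adjusted p = 5e-05). Of 29 initiation factors, 9 were higher and 0 lower in obese tumors before therapy on counts (median 0.13). That rise was not seen in TPM, where 2 were higher and 2 lower (median 0.007), against 6.95% and 17.1% of all genes. After ETS 1 rose and 4 fell in lean tumors (median -0.07, with 23 lower and 0 higher in TPM). In obese tumors 0 rose and 16 fell (median -0.29, with 20 lower and 0 higher in TPM). Of 22 genes of mTORC1 and of TOP-mRNA control, 9 were higher and 4 lower after ETS in lean tumors (median 0.12 but -0.22 in TPM), with 5 higher and 3 lower in obese tumors (median 0.00 and in TPM -0.05). Larp1, which binds the TOP motif, fell by 0.85 in lean tumors (SE 0.11, edgeR adjusted p = 3.8e-05) and by 0.36 in obese tumors (SE 0.11, edgeR adjusted p = 0.015), while Sesn2, a p53-induced inhibitor of mTORC1, rose by 1.23 ± 0.17 and 0.62 ± 0.16 (edgeR adjusted p = 6.5e-05 and 0.0083). Of 10 dedicated chaperones of ribosomal proteins, 2 were higher and 2 lower after ETS in lean tumors, with 0 higher and 3 lower in obese tumors, and on the TPM scale 8 of the 10 were lower in lean tumors.

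The 78 mitochondrial ribosomal proteins, which build a different ribosome from nuclear genes, were compared as the most similar class. Before therapy 25 were higher and 0 lower in obese mice on counts, against 13.5% and 12.9% of all genes, the median being 0.26 against 0.46 for the cytosolic members. On the TPM scale 7 of the 78 were higher and 0 lower (median 0.12), against 6.95% and 17.1% of all genes. After ETS 26 rose and 0 fell in lean tumors on counts (median 0.22), against 21.0% and 22.8% of all genes, whereas in TPM 4 were higher and 23 lower (median -0.15). In obese tumors 2 rose and 23 fell on counts (median -0.13), against 21.2% and 19.0% of all genes. In TPM 1 was higher and 36 lower there (median -0.22), against 15.9% and 20.6% of all genes. The difference between the ETS effects passed for 19 upward and 0 downward (median 0.36), against 6.35% and 10.1% of all genes, and on the TPM scale for 3 upward and 1 downward (median 0.08). Whether the cytosolic and mitochondrial classes differ from each other was not tested.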

How the data were processed

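RNA from 16 tumors was sequenced by the study as paired reads from poly(A) RNA with a stranded kit. According to the submitters' notes, base calls were made with bcl2fastq 2.20.0, reads were trimmed with Trimmomatic and aligned to mm10 with HISAT2 2.1.0, and StringTie 2.1.3b estimated the values. The authors deposited read counts per gene, which are whole numbers and not normalized, with FPKM and TPM values beside them. The counts and TPM were used here, and the 16 FPKM columns were not. The annotation and the strand setting of the counting are not given in the sources used here.

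As the study did, only genes with reads in all tumors were kept, 16209 in number. Counts were scaled by TMM and tested with edgeR 4.0.16 (quasi-likelihood, 1 mean per group, all 16 tumors sharing the estimate of spread) in R 4.3.3, and p-values were adjusted by Benjamini-Hochberg over all genes with a threshold of 0.05. The study used edgeR's exact test on log-transformed counts, which was run on counts as an alternative. TPM values were tested with limma 3.58.1 on log2(TPM + 1), so that changes of low genes are understated. DESeq2 1.42.0, other scalings, other gene filters, fits without each tumor and a replicate block were alternatives. Ratios of paralogs were tested with exact permutation tests (SciPy 1.17.1). The edgeR script was checked on simulated data.

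The 16 tumors were grouped by the genotype and therapy labels, 4 a group. The replicate numbers did not pair the tumors. The range of total counts limits precision little for these abundant genes, and tests rest on the spread between 4 tumors. Named genes were those with set roles, the paralogs and their partners, the 3 largest changes in each direction that passed in each comparison, and the 3 highest and 3 lowest members by TPM. The members, lists and markers were chosen with earlier results of these data known. Promoter windows came from RefSeq (GRCm38.p6) and transcript features from GENCODE vM21. No protein sequence was used.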

Additional observations from a re-analysis of the deposited data

Results flagged for a closer look

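In 168 groups of 4 tumors examined, 9 had a tumor far from the other 3, and chance alone gives about 1 in 20. Of the named members, lean tumor 2 after ETS stood high for Rpl10 (925 CPM), Rplp0 (2664 CPM), Rplp1 (1829 CPM) and Rpsa (1962 CPM). Lean tumor 1 before therapy stood high for the copies Rpl37rt (2.72 CPM) and Rps3a3 (3.09 CPM). Obese tumor 4 before therapy stood high for Rps4x (999 CPM), and obese tumor 4 after ETS for Rpl36al (129 CPM) and Rps6 (752 CPM). Obese tumor 4 after ETS also had the lowest mitochondrially encoded share of its group, 4.76% of counts. The part of these tumors in the results was examined by leaving each of them out, and the counts without them are in the next part.

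By the edgeR test of the difference on TMM-scaled counts, the ETS effect was unequal in the 2 hosts in 37 members that were more positive in lean tumors and 1 that was more positive in obese tumors. The same difference can be read as untreated obese tumors standing above untreated lean tumors while the treated groups were alike in the median member. Among the named members the lean effect was more positive by 0.79 (log2) for Rpl36, 0.73 for Rps14, 0.70 for Rpl32, 0.66 for Rplp1, 0.66 for Rps27l, 0.65 for Rps28, 0.63 for Rpl22, 0.60 for Rpl7, 0.60 for Rps19, 0.60 for Rpl13a, 0.56 for Rpl3, 0.55 for Rps2, 0.48 for Rpl11, 0.46 for Rps4x and 0.42 for Rpl23. For Rps4l, a low transcribed pseudogene, it was -2.38. On the TPM scale the difference passed for Rps4l alone.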

How the results depend on the processing

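The rise of ribosomal protein genes in obese against lean tumors before therapy and their fall after ETS in obese tumors kept their direction under every alternative run, whereas the rise in lean tumors did not. The replicate numbers of the labels correlated between groups at -0.11 to 0.45, with the own number closest in 10 of 24 comparisons of a tumor with another group, so they were not taken as pairs. With the replicate block, 35 members rose in lean tumors, 27 fell in obese tumors, 34 differed between the effects and 69 were higher before therapy, and after ETS the block had 1 member higher (Rps4l).

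On log2(TPM + 1) the lean count was 3 higher and 13 lower with a median of -0.10, the obese count 52 lower, the difference 0 higher (median 0.21), the count before therapy 38 (median 0.32) and that after ETS 2 (median 0.14). Rpl10 (-0.25), Rpl23 (-0.11), Rpl3 (-0.052), Rpl32 (-0.00028), Rpl5 (-0.38), Rpl7 (-0.045), Rpl7l1 (-0.26), Rps19 (-0.0061), Rps27a (-0.37) and Rps4x (-0.031) turned negative there in lean tumors, each called on at least 1 of the scales, as did 11 other named members called on neither. With library totals alone the lean count was 13 (median 0.091), the obese count 52, the difference 20 and that after ETS 1. With the trend of length and GC content removed, chosen after seeing the data, the lean count was 22 higher and 3 lower (median 0.12, Rps19 -0.0025), the obese count 2 higher, the difference 17 (median 0.31) and that after ETS 1. With TPM rescaled without mitochondrially encoded genes, also chosen after seeing the data, the lean count was 15 higher and 2 lower (median 0.10), the obese count 1 higher, the difference 6 (median 0.29), the median before therapy 0.31 and the count after ETS 1. In these settings the cause of the changed counts was not tested.

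The single lower member in lean tumors, Rps4l, was lost (0) with no exclusion of low counts, with filterByExpr and in the fit of the groups compared alone. Obese tumors had 1 higher member with DESeq2 size factors, filterByExpr, the exact test, DESeq2, limma-voom and the groups compared alone, and that last fit had 14 lower. The difference was 57 with filterByExpr, 59 with DESeq2 and 65 with limma-voom. After ETS 1 was higher by the exact test, DESeq2 and limma-voom. As a share of summed TPM the members took 11.1%, 10.7%, 13.9% and 11.2% in the 4 groups.

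Without each tumor in turn, the lean counts ranged from 22 to 43 higher and from 0 to 1 lower (medians 0.19 to 0.33), the obese counts from 0 to 1 higher and from 9 to 35 lower (medians -0.27 to -0.18), the differences from 13 to 51 higher with 1 lower (medians 0.44 to 0.55), the counts before therapy from 53 to 73 (medians 0.40 to 0.51), and those after ETS from 0 to 1 higher with 0 lower (medians -0.05 to 0.03). The shares of counts ranged from 4.20% to 4.43% and 4.54% to 4.79% in lean tumors before and after ETS and from 5.51% to 5.92% and 4.42% to 4.69% in obese tumors. With 4 tumors a group, an exact test of a ratio cannot go below 0.0286.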
